A study of Homo sapiens with 24 samples.

Results

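*CXCR4*, *ACKR3* and *CXCL12* make up the receptor, scavenger and ligand of a chemokine axis, and their levels were followed in hiPSCs with and without *ROR2* knockdown (KD) during differentiation into neural stem/progenitor cells (NS/PCs). The 3 genes were picked by symbol with earlier results of these arrays known, and for each the transcript cluster (the array's unit for a transcribed locus) with the highest mean signal over all 24 arrays was used. Each symbol had 1 cluster, so that the mean decided nothing. They are 3 of 33616 genes measured by a cluster with a single gene symbol. Levels come from total RNA on Clariom D arrays, whose probes cover coding and noncoding transcripts, and every value is a log2 signal. The cells were R-2A (HiPS-RIKEN-2A), a human iPSC line, infected with a lentivirus that carried a nonmammalian control shRNA (sh-C cells) or an shRNA against *ROR2* (*ROR2* KD cells). Infected cells of each kind were selected with puromycin, and the labels tell no separate infections apart and do not say which shRNA the *ROR2* KD cells carried. Each of the 8 groups held 3 biological replicates: sh-C and *ROR2* KD cells in the undifferentiated state (day 0) and after 7, 14 and 21 days in STEMdiff neural induction medium with SMAD inhibitors. P-values therefore describe the spread between these replicates and not between infections.

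Chemokines are small secreted proteins that guide moving cells. *CXCL12* encodes such a ligand. *CXCR4* encodes its G protein-coupled receptor, through which cells move toward the ligand. *ACKR3* (formerly *CXCR7*) encodes an atypical receptor that takes up CXCL12 without coupling to G proteins in the usual way, and so lowers the ligand around the cell. In the developing forebrain of mice, the ligand is made by the meninges and by cells of the cortical wall, and both receptors guide interneurons and Cajal-Retzius cells along their paths. CXCR4 is also a surface marker of definitive endoderm in pluripotent cell cultures.

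The sequences before the first annotated start of *CXCR4* and before the start of *CXCL12* are shown because the signal of the receptor rose and that of the ligand fell from day 0 to day 7, as described below. They were taken from RefSeq (GRCh38.p14) and cover 250 bases before the start, at chr2:136118150-136118399 (minus strand) for *CXCR4* and chr10:44385098-44385347 (minus strand) for *CXCL12*. RefSeq gave 3 start sites for *CXCR4* and 1 for *CXCL12*. Capitals mark matches on either strand to 2 motifs, the TATA box (TATAAA) and the GC box (CCGCCC), which were chosen after the sequences had been read.
*CXCR4*: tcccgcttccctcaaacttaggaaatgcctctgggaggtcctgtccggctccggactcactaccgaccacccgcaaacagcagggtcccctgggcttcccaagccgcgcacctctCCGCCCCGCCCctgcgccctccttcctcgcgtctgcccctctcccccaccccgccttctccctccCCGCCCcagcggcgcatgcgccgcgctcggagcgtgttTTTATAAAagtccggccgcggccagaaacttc
*CXCL12*: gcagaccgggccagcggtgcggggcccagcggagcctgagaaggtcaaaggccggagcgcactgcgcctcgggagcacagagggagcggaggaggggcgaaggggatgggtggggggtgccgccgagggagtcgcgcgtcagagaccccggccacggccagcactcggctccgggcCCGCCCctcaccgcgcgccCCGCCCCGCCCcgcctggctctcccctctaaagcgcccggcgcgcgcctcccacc
The window of *CXCR4* held 2 overlapping matches to the TATA box on opposite strands and 3 matches to the GC box, of which 2 overlap. That of *CXCL12* held 3 matches to the GC box, of which 2 overlap, and 0 matches to the TATA box. Among 35116 windows of the same length before RefSeq starts, 10.7% held the TATA box and 42.6% the GC box. G and C made up 68% of the window of *CXCR4* and 78% of that of *CXCL12*. These matches describe the letters only and were not tested for binding.

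Each array holds 23 background probe sets, and their 95th percentile on that array served as its background level. It lay between 7.30 and 9.97 (log2) and was highest on the arrays of day 0, and 20.6% to 31.2% of the genes were above it. Array medians lay between 4.26 and 4.51, and arrays of a group correlated at 0.963 to 0.987 across clusters. *ROR2*, the targeted gene, was at 5.29 ± 0.71 (log2 signal, SD, n = 3) in *ROR2* KD and at 7.81 ± 0.19 in sh-C cells on day 0, a log2 difference of -2.51 (adjusted p = 0.000165 from limma). At day 7 the difference was -2.62, at day 14 -2.56 and at day 21 -0.89, the last with an adjusted p of 0.0823. *ROR2* was above the background level only on the 3 sh-C arrays of day 7. The pluripotency genes *POU5F1*, *NANOG*, *LIN28A* and *DPPA4* exceeded the background level on each of the 6 day 0 arrays. Their summed linear signal was 402000 to 531000 on day 0 and 1400 to 1910 on day 21.

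*CXCR4* rose early in differentiation in both cell lines and rose further by day 14 in sh-C cells, whereas the later change in *ROR2* KD cells did not pass the test. In sh-C cells its log2 signal was 6.82, 7.39 and 6.70 on day 0 and 10.14, 10.69 and 9.91 on day 7. It then stood at 12.38, 12.27 and 12.82 on day 14 and at 10.87, 10.67 and 10.94 on day 21. The 3 arrays of day 14 were above all other arrays of the series. In *ROR2* KD cells the log2 signal was 6.81, 7.02 and 6.34 on day 0 and 10.54, 10.49 and 9.66 on day 7. It was 9.76, 9.88 and 9.70 on day 14 and 9.63, 9.72 and 9.68 on day 21, so that the *ROR2* KD arrays of days 14 and 21 lay in or just below the range of day 7. On the 18 arrays of days 7 to 21 *CXCR4* was above the background level, and on the 6 arrays of day 0 it was under it.

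**Figure D1:**
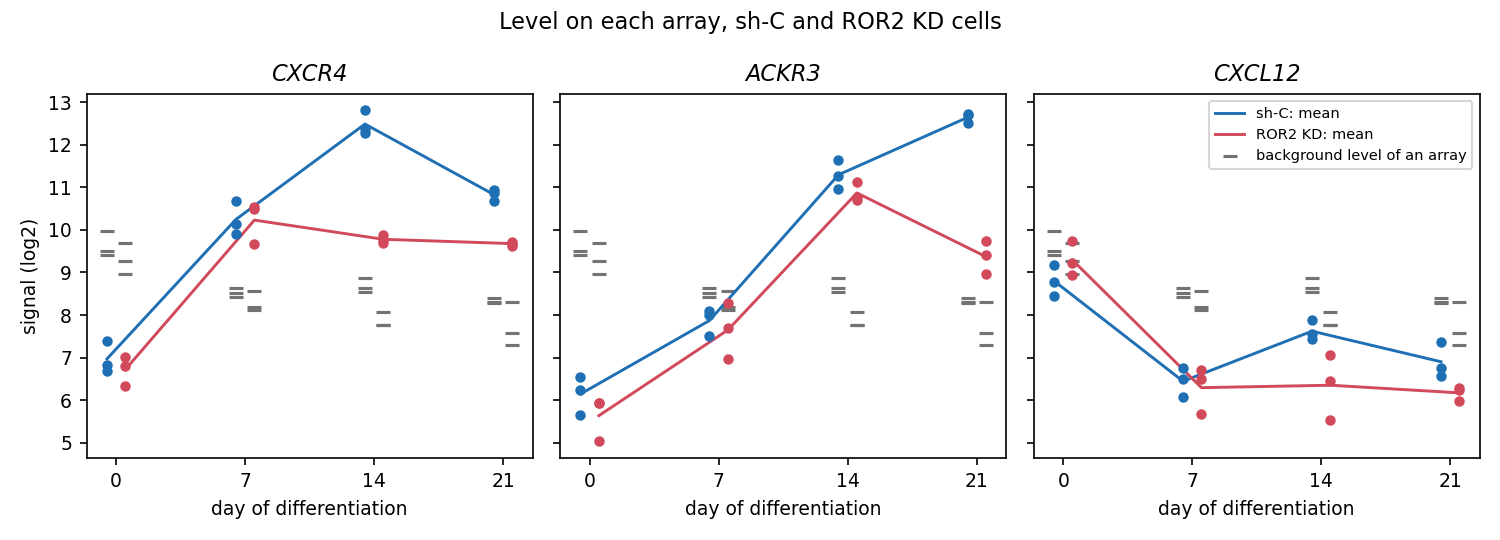
Log2 signal of *CXCR4*, *ACKR3* and *CXCL12* (1 panel each) by day of differentiation. Points are arrays of sh-C (blue) and *ROR2* KD cells (red), lines join the means of 3 arrays, and grey dashes are the background levels of the arrays. *CXCR4* peaks on day 14 in sh-C cells at 12.49 and is at 9.78 in *ROR2* KD cells, and *ACKR3* reaches 12.64 and 9.37 on day 21.

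The comparison of *ROR2* KD with sh-C cells at the same day asks how the knockdown line differs at that stage. On day 14 *CXCR4* was lower in *ROR2* KD cells, at 9.78 ± 0.10 (log2, SD, n = 3) against 12.49 ± 0.29. The log2 difference was -2.71 (standard error 0.26, adjusted p = 7.89e-07 from limma), which is a 6.53-fold lower signal. The groups did not overlap. The methods' unpaired test, which takes the spread from the 6 arrays compared, did not call it after adjustment (0.0817). *CXCR4* was the only one of the 3 genes called (adjusted p under 0.05 and fold change above 2) on day 14, where 1.7% of all genes were called and 0.77% were lower. On day 21 *CXCR4* was again lower in *ROR2* KD cells, at 9.68 ± 0.04 against 10.83 ± 0.14, a log2 difference of -1.15 (standard error 0.26, adjusted p = 0.0131 from limma), or 2.22-fold. The arrays did not overlap, but this call was lost without sh-C replicate 1 (adjusted p = 0.0573), sh-C replicate 3 (0.0626) or *ROR2* KD replicate 1 (0.0505) of day 21. Fitted on the 6 arrays of day 21 alone, it was lost as well (adjusted p = 0.0528), and the methods' test did not call it (0.0676). As these are bulk samples, fewer cells that express a gene and less of its RNA per cell cannot be told apart.

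On days 0 and 7 the cell lines overlapped in *CXCR4*. On day 7 the mean was 10.23 ± 0.49 in *ROR2* KD and 10.25 ± 0.40 in sh-C cells. The log2 difference was -0.02, with a 95% interval from -0.55 to 0.52 (adjusted p = 0.992 from limma). On day 0, with every array under background, it was -0.25, with an interval from -0.78 to 0.29 (adjusted p = 0.815). Of the 3 genes, 0 were called on day 0 and 0 on day 7, where 0.0803% and 0.277% of all genes were called. At an unadjusted p under 0.05 the counts were 0 on both days in limma and in the methods' unpaired test. The difference of *CXCR4* on day 14 was itself different from that on day 7, by -2.69 on the log2 scale (standard error 0.37, adjusted p = 0.000355 from limma). In this contrast 0.875% of all genes were called. From day 14 to day 21 the change in the difference was 1.56, which did not pass the test (adjusted p = 0.063 from limma).

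*ACKR3*, the scavenger receptor, was under the background level until day 7 and differed between the cell lines on day 21. In sh-C cells its log2 signal was 6.55, 5.65 and 6.23 on day 0 and 7.51, 8.10 and 8.01 on day 7. It was 11.27, 10.97 and 11.65 on day 14 and 12.51, 12.72 and 12.70 on day 21. The 3 sh-C arrays of day 21 were the highest of the series, and the groups of days 7, 14 and 21 did not overlap. In *ROR2* KD cells the log2 signal was 5.93, 5.94 and 5.04 on day 0 and 8.28, 6.97 and 7.70 on day 7. It was 11.12, 10.70 and 10.78 on day 14 and 9.74, 8.96 and 9.42 on day 21. *ROR2* KD cells thus had their highest level of *ACKR3* on day 14, and sh-C cells on day 21. *ACKR3* was above the background level on the 12 arrays of days 14 and 21 and under it on the 12 arrays of days 0 and 7.

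On day 21 *ACKR3* was at 9.37 ± 0.39 (log2, SD, n = 3) in *ROR2* KD and at 12.64 ± 0.12 in sh-C cells. The log2 difference was -3.27 (standard error 0.32, adjusted p = 3.46e-07 from limma), a 9.65-fold lower signal. After adjustment the methods' test did not call it (0.0657). *CXCR4* and *ACKR3* were the 2 genes of the axis called on that day, both lower, where 4.67% of all genes were called in either direction and 2.51% were lower. Only 0.327% of all genes had a larger absolute difference on day 21 than *ACKR3*, and only 0.208% had a larger one on day 14 than *CXCR4*. On day 14 *ACKR3* overlapped between the cell lines, at 10.87 ± 0.22 against 11.30 ± 0.34. The log2 difference was -0.43, with a 95% interval from -1.09 to 0.23 (adjusted p = 1 from limma). On days 7 and 0 it was -0.22 (interval -0.88 to 0.44) and -0.51 (interval -1.17 to 0.15), under the background level. From day 14 to day 21 the difference between the cell lines changed by -2.84 on the log2 scale (standard error 0.45, adjusted p = 0.00122 from limma), in a contrast that called 1.38% of all genes.

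*CXCL12*, the ligand, was above the background level on 1 of 24 arrays, *ROR2* KD replicate 3 of day 0, so that differences are given as signal only and no fold is stated. In sh-C cells its log2 signal was 8.46, 9.17 and 8.78 on day 0, 6.75, 6.50 and 6.08 on day 7, 7.88, 7.55 and 7.44 on day 14, and 7.37, 6.76 and 6.58 on day 21. In *ROR2* KD cells it was 9.22, 8.93 and 9.73 on day 0, 6.70, 6.50 and 5.68 on day 7, 7.07, 5.54 and 6.45 on day 14, and 6.25, 5.99 and 6.28 on day 21. The signal was highest in undifferentiated cells of both lines, on all 6 arrays of day 0. On day 14 the sh-C arrays lay above the *ROR2* KD arrays, at 7.62 ± 0.23 (log2, SD, n = 3) against 6.35 ± 0.77. The log2 difference was -1.27 (standard error 0.34) and did not pass the test (adjusted p = 0.111 from limma). It was -1.63 (adjusted p = 0.026) without *ROR2* KD replicate 1 of day 14, the highest of its group. On day 21 the difference was -0.73 (95% interval -1.43 to -0.03, adjusted p = 0.418 from limma), also without overlap. On days 0 and 7 it was 0.49 (interval -0.21 to 1.19) and -0.15 (interval -0.85 to 0.54).

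**Figure D2:**
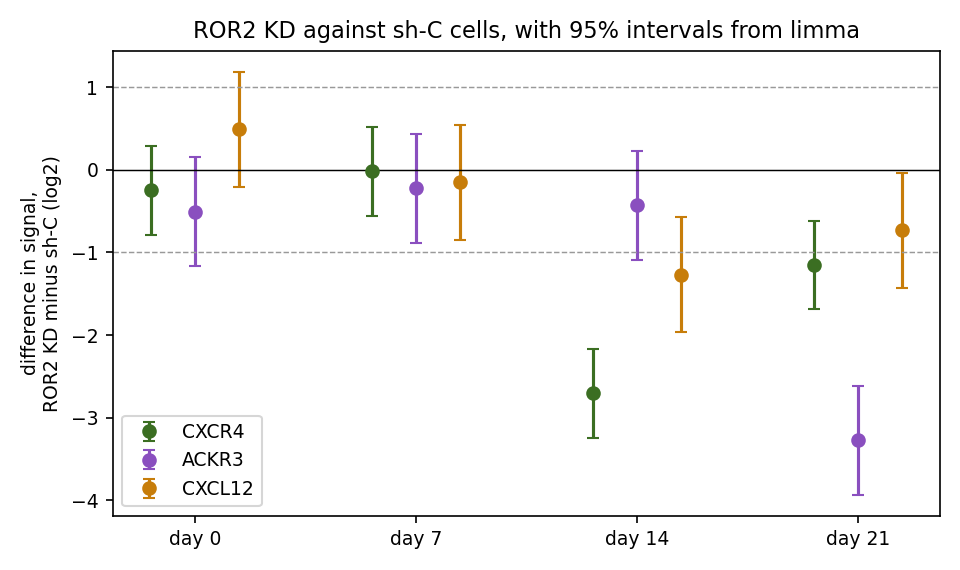
Difference in log2 signal, *ROR2* KD minus sh-C cells, at each day for *CXCR4*, *ACKR3* and *CXCL12*. Points are limma estimates with 3 arrays per group, bars are 95% intervals, and the dashed lines mark a fold change of 2. *CXCR4* stands at -2.71 on day 14 and *ACKR3* at -3.27 on day 21, while all intervals of days 0 and 7 include 0.

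The order of the 8 groups differed among the 3 genes. For *CXCR4* the sh-C cells of day 14 stood alone at the top. They were followed by sh-C cells of days 21 and 7 and *ROR2* KD cells of days 7, 14 and 21, each of which overlapped its neighbour. The groups of day 0 came last, with a gap of 2.25 on the log2 scale below the others. For *ACKR3* the order was sh-C day 21, sh-C day 14, *ROR2* KD day 14, *ROR2* KD day 21 and then the groups of days 7 and 0. The neighbours of the same day overlapped on days 14, 7 and 0, and all other neighbours were apart. For *CXCL12* the 2 groups of day 0, which overlapped, were followed by sh-C day 14, and the 5 remaining groups, from 6.17 to 6.90, overlapped their neighbours.

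The changes between days were next compared within each cell line. These comparisons share arrays with those between the cell lines and are not separate evidence. From day 0 to day 7 *CXCR4* rose in sh-C cells by a log2 difference of 3.28 (adjusted p = 9.49e-10 from limma) and in *ROR2* KD cells by 3.51 (adjusted p = 3.7e-10). Against the background level of day 0 the rise was at least 1.54-fold and at least 1.91-fold. *ACKR3* rose by 1.73 (adjusted p = 0.000195) and 2.01 (adjusted p = 3.43e-05) while under the background level, and *CXCL12* changed by -2.36 (adjusted p = 7.74e-06) and -2.998 (adjusted p = 2.96e-07). All 3 genes were thus called in both cell lines, where 27.6% of all genes were called in sh-C and 25.7% in *ROR2* KD cells. The change from day 0 to 7 did not pass the test of a difference between the cell lines for any of the 3 genes (adjusted p = 0.894 for *CXCR4*, 0.893 for *ACKR3* and 0.716 for *CXCL12* from limma), in a contrast that called 0.0744% of all genes. The unadjusted p was 0.533, 0.531 and 0.191.

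From day 7 to day 14 the receptors parted in *ROR2* KD cells, while both rose in sh-C cells. In sh-C cells *CXCR4* rose by 2.24 on the log2 scale (standard error 0.26, adjusted p = 2.76e-06 from limma). In *ROR2* KD cells its change was -0.45 (95% interval -0.99 to 0.09, adjusted p = 0.37). *ACKR3* rose in sh-C cells by 3.42 (adjusted p = 1.01e-07) and in *ROR2* KD cells by 3.22 (adjusted p = 2.09e-07), which is at least 6.84-fold and at least 5.96-fold above the background level of day 7. The test of a difference in this rise gave -0.21 (standard error 0.45, adjusted p = 0.968). The change of *CXCL12* was 1.18 in sh-C cells (adjusted p = 0.0502) and 0.06 in *ROR2* KD cells (adjusted p = 0.955). Of the 3 genes, 2 were called in sh-C cells and 1 in *ROR2* KD cells, where 7.07% and 8.89% of all genes were called.

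From day 14 to day 21 the cell lines went opposite ways in *ACKR3*. It rose in sh-C cells by 1.35 on the log2 scale (standard error 0.32, adjusted p = 0.011 from limma) and fell in *ROR2* KD cells, with a difference of -1.497 (adjusted p = 0.00374). The rise in sh-C cells was 1.18 (adjusted p = 0.0732) without sh-C replicate 2 of day 14. *CXCR4* fell in sh-C cells, with a difference of -1.66 (adjusted p = 0.000175), and its change in *ROR2* KD cells was -0.10 (95% interval -0.64 to 0.44, adjusted p = 0.879). The change of *CXCL12* was -0.72 in sh-C (adjusted p = 0.276) and -0.18 in *ROR2* KD cells (adjusted p = 0.828). In this interval 2 of the 3 genes were called in sh-C cells and 1 in *ROR2* KD cells, against 7.34% and 8.96% of all genes.

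**Figure D3:**
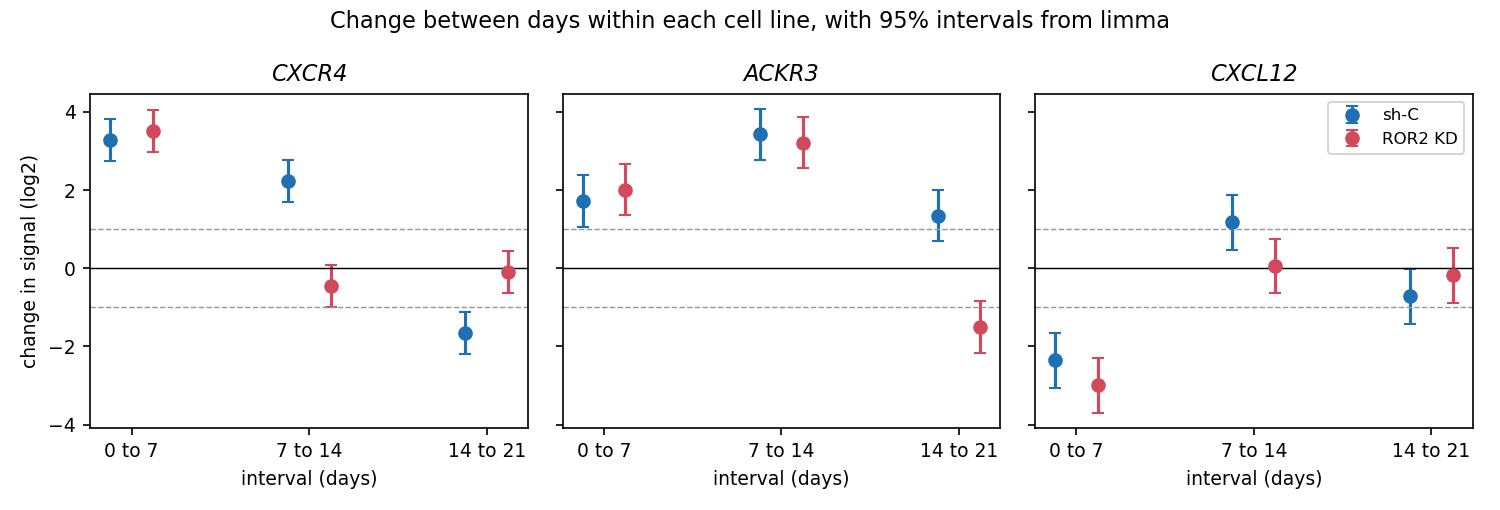
Change in log2 signal between neighbouring days within sh-C (blue) and *ROR2* KD cells (red) for *CXCR4*, *ACKR3* and *CXCL12*. Points are limma estimates with 3 arrays per group, bars are 95% intervals, and the dashed lines mark a fold change of 2. *CXCR4* separates the cell lines from day 7 to 14 (2.24 against -0.45) and *ACKR3* from day 14 to 21 (1.35 against -1.497).

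Markers of cell types that use or make the axis were then examined on the same arrays. The 9 measured markers of migrating GABAergic interneurons had a summed linear signal of 17700 to 18400 in *ROR2* KD cells on day 14. In sh-C cells the sum was 2200 to 2620 on that day, the day of the larger *CXCR4* difference. On day 21 the sums were 81000 to 101000 and 24600 to 26500. Of these 9 markers, 5 were called higher and 0 lower on day 14, and 5 higher and 1 lower on day 21. These are 55.6% and 66.7% of the list, beside 1.7% and 4.67% of all genes. Of the markers called higher on day 14, *DLX6* exceeded the background level on no array of that day. *GAD2* did so on only 1 *ROR2* KD array. The highest markers in *ROR2* KD cells of day 14 were *DLX1* and *DLX5*, at means of 12.75 and 12.72 (log2), which weigh most in the sum. *LHX6* was at 3.67 in these cells and was not called. The marker called lower on day 21 was *LHX6*, at 5.33 ± 0.59 in *ROR2* KD and 10.15 ± 0.55 in sh-C cells (adjusted p = 1.5e-10 from limma). It exceeded the background level on 3 sh-C and 0 *ROR2* KD arrays of day 21. The 6 markers of neural progenitors had sums that overlapped between the cell lines, at 282000 to 289000 in *ROR2* KD and 260000 to 332000 in sh-C cells on day 14, and 225000 to 260000 and 237000 to 256000 on day 21. Single members were nevertheless called, 1 higher and 1 lower of 6 on each day (33.3% of the list, beside 1.7% and 4.67% of all genes). *PAX6*, a factor of dorsal forebrain progenitors, was higher by 2.23 on day 14 and by 10.58 on day 21, when no sh-C array exceeded the background level. *FABP7* was lower on day 14 (log2 difference -1.19) and *NES*, an intermediate filament gene of progenitors, on day 21 (-1.08). Of the 8 markers of Cajal-Retzius cells, 5 (*RELN*, *TP73*, *LHX1*, *EBF2* and *TBR1*) never exceeded the background level. The sum of the 8 was 608 to 732 in *ROR2* KD and 881 to 1110 in sh-C cells on day 14, and 292 to 416 and 238 to 268 on day 21. On day 14, 1 of the 8 (12.5%, beside 1.7% of all genes) was called lower (*LHX5*, log2 difference -1.18). On day 21, 2 were called higher (*CALB2* by 4.29 and *RELN* by 1.78) and 1 lower (*LHX1*, -2.76), all with no sh-C array above the background level. These are 37.5% of the list, beside 4.67% of all genes. The part of these cell types in the *CXCR4* and *ACKR3* differences was not tested.

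Defining markers of other cells known for CXCR4, ACKR3 or CXCL12 were mostly under the background level. For definitive endoderm, *SOX17*, *FOXA2*, *GSC*, *CER1* and *HHEX* never exceeded it, and the summed signal of the 6 markers was at most 295. For endothelium, *PECAM1*, *CDH5*, *TIE1*, *CLDN5* and *ESAM* never exceeded it, *KDR* did on 1 array and *TEK* on 20. For meningeal and other mesenchyme, 6 of 8 markers were never above it, and the collagen genes *COL1A1* and *COL1A2* were above it on 16 and 18 arrays. On day 14 the sum of the 8 markers was 1310 to 1450 in *ROR2* KD and 990 to 1380 in sh-C cells. For haematopoietic cells and microglia and for neural crest, 5 of 6 and 4 of 5 markers were never above the background level, with *AIF1* and *ERBB3* as the exceptions on 6 arrays each. On day 21 *TEK* was higher in *ROR2* KD cells by 1.29 (log2, adjusted p = 0.000276 from limma), above the background level on 2 *ROR2* KD and 0 sh-C arrays. The mesenchymal *LUM* was higher by 3.29 (adjusted p = 8.13e-08 from limma), with no array above it. These are 14.3% and 12.5% of their lists, beside 4.67% of all genes. No other marker of these lists was called on any day.

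The rest of the pathway was described from 5 lists with 129 genes, of which 120 were measured by a cluster with a single symbol. The numbers called by limma in *ROR2* KD against sh-C cells were 0 on day 0, where 17 had an unadjusted p under 0.05, 1 on day 7, 10 on day 14 and 20 on day 21. These are 0.833%, 8.33% and 16.7% of the list genes on days 7, 14 and 21. Of all genes, 0.0803%, 0.277%, 1.7% and 4.67% were called on days 0, 7, 14 and 21. Among the genes above the background level on 3 or more arrays, 0.703%, 4.24% and 10.9% were called on days 7, 14 and 21. The list genes were not filtered on that level. How many of all genes had an unadjusted p under 0.05 in limma on day 0 was not counted. The methods' test called 0 list genes on days 0, 7 and 14 and 3 on day 21.

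Among 17 genes that couple chemokine receptors to the cell, 0 were higher and 1 was lower on each of days 14 and 21. This is 5.88% of the list, beside 1.7% of all genes on day 14 and 4.67% on day 21, so that the share of day 21 is near that of all genes. *GNAI2*, an inhibitory G protein alpha subunit used by CXCR4, was at 15.05 and 14.92 (log2 means of sh-C and *ROR2* KD cells) on day 14, with an adjusted p of 1 from limma. *ARRB1*, an arrestin that binds activated receptors, was at 11.48 and 11.27 on day 21 (adjusted p = 0.902). The called genes were *RGS10*, which speeds the shutdown of G protein signaling, on day 14 and *GPSM2*, a binding partner of these G proteins in spindle orientation, on day 21. *RGS10* was at 8.79 ± 0.18 in sh-C and 7.06 ± 0.07 in *ROR2* KD cells (adjusted p = 0.00242 from limma). It exceeded the background level on only 2 sh-C and 0 *ROR2* KD arrays of day 14. *GPSM2* was at 11.31 ± 0.16 in sh-C and 9.90 ± 0.28 in *ROR2* KD cells (adjusted p = 0.000548 from limma). The median log2 difference of the list was -0.13 on day 14 and -0.15 on day 21, beside -0.03 and -0.02 over all genes. *GNG5* of this list had a log2 difference of -0.90 on day 21 (adjusted p = 0.019 from limma), which did not reach a fold change of 2. *GNAI2*, *ARRB1* and *GNG5* were chosen as examples after their values were seen.

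Of 14 other ligands, scavenged peptides and modifiers of the axis, 1 was lower on day 14, and 1 was higher and 3 were lower on day 21. These are 7.14% and 28.6% of the list, beside 1.7% and 4.67% of all genes. *CXCL14*, a chemokine reported to bind CXCR4, was lower on day 21 by a log2 difference of -3.09 (standard error 0.28, adjusted p = 1.04e-07 from limma), with no array above the background level. *GPC3*, a heparan sulfate proteoglycan of the cell surface, was at 7.43 ± 0.08 in *ROR2* KD and 10.95 ± 0.30 in sh-C cells (adjusted p = 1.39e-09). *MIF*, a cytokine that also binds CXCR4 and ACKR3, stood at 10.63 ± 0.51 in *ROR2* KD and 11.67 ± 0.33 in sh-C cells (adjusted p = 0.0412). The opioid peptide precursor genes *PDYN* (lower on day 14, by -1.12) and *PNOC* (higher on day 21, by 1.69) did not exceed the background level on those days. The list's median was -0.22 on day 14 and -0.19 on day 21. Of 36 other chemokines and chemokine receptors, 0 were called on any day by limma or the methods' unpaired test, and 0 were above the background level on all 3 arrays of any group of days 7 to 21. At an unadjusted p under 0.05, limma gave 6, 1, 0 and 2 of them on days 0, 7, 14 and 21, and the methods' test gave 4, 1, 1 and 3.

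Of 31 genes of migration signaling, 1 was lower on days 7 and 14, and 1 was higher and 2 were lower on day 21. These are 3.23%, 3.23% and 9.68% of the list, beside 0.277%, 1.7% and 4.67% of all genes. Of genes above the background level on 3 or more arrays, 0.703%, 4.24% and 10.9% were called. The list's shares of days 14 and 21 are thus near those of the brighter genes. *PREX1*, an exchange factor that activates Rac downstream of G protein-coupled receptors, was lower on all 3 days, with log2 differences of -1.25 (adjusted p = 0.0338 from limma), -3.004 (adjusted p = 9.8e-08) and -2.26 (adjusted p = 2.99e-06). No *ROR2* KD array of these days exceeded the background level. Without 1 array of day 7, between 0 and 3 list genes were called on that day. *PREX2*, a related exchange factor, was lower on day 21 by -1.30 (adjusted p = 0.000933), and *ELMO1*, part of a Rac activator used by chemokine receptors in leukocytes, was higher by 1.66 (adjusted p = 0.000116). The list's median was -0.10 on day 14 and -0.07 on day 21.

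Receptors and ligands of other migration cues differed between the cell lines on days 14 and 21. Of 22 genes, 0 were called on days 0 and 7 (4 and 5 had an unadjusted p under 0.05 in limma), 6 were higher and 1, *ROBO1*, was lower on day 14, and 10 were higher and 2, *NTN1* and *SLIT2*, were lower on day 21. Of all genes, 0.934% were higher and 0.77% lower on day 14, and 2.16% and 2.51% on day 21. Among the list genes called higher, *UNC5D* on day 14 and *UNC5C* and *RELN* on day 21 exceeded the background level on no array of that day. The list's median was -0.21, -0.25, 0.47 and 0.80 on days 0, 7, 14 and 21, beside -0.10, 0.01, -0.03 and -0.02 over all genes. On day 14 *ROBO2*, a SLIT receptor, was at 11.36 ± 0.08 in *ROR2* KD and 8.83 ± 0.15 in sh-C cells (log2 difference 2.54, adjusted p = 1.86e-07 from limma), and the netrin receptor *DCC* was at 13.54 ± 0.14 and 11.29 ± 0.18 (adjusted p = 6.55e-07). *NRG1*, a ligand of ERBB receptors, and its receptor *ERBB4*, which guide interneurons in mice, were higher by 1.28 and 1.23. Neither exceeded the background level in sh-C cells of day 14, and *ERBB4* did so on only 1 *ROR2* KD array of that day. On day 21 *UNC5D*, a repulsive netrin receptor, was higher by 4.26 (adjusted p = 1.65e-11), *SLIT3* by 3.93 and *DAB1*, the adaptor of the reelin receptors, by 2.87. None of these 3 exceeded the background level in sh-C cells of day 21. *NTN1*, which encodes netrin-1, was lower by a log2 difference of -2.83 (adjusted p = 2.91e-05), with no *ROR2* KD array above the background level. *ROBO1*, *SLIT2*, *UNC5C* and *RELN*, and *UNC5D* for day 14, were named after their values were seen.

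**Figure D4:**
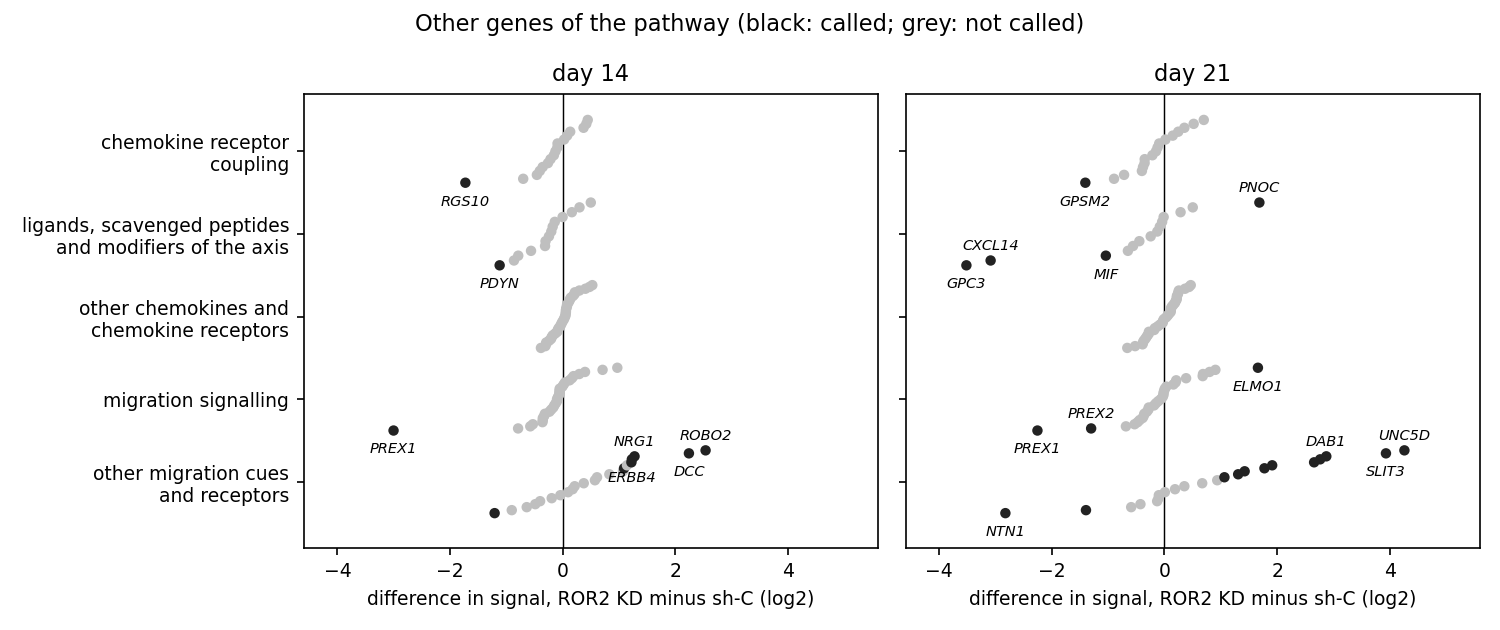
Difference in log2 signal, *ROR2* KD minus sh-C cells, of 120 genes in 5 lists on day 14 (left) and day 21 (right). Each point is a gene, ordered within its list by the difference, in black where called and in grey otherwise, and the labelled genes are those named by the rule. In the list of other migration cues 6 genes of day 14 and 10 of day 21 are called to the right of 0, and in that of other chemokines 0 are called.

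The genes most like each member were sought by Pearson correlation over the 8 group means, among the 4960 genes (less the member itself where it was among them) above the background level on all 3 arrays of at least 1 group and with a range of at least 2 (log2). The groups share the cell line and the time course, so that high values are common and are given as a description. *CXCR4* was most like *FKBP7* (r = 0.968), *MAP2K5* (0.960), *FABP7* (0.958), *KDM1B* (0.957) and *HECTD2* (0.952). *FABP7*, a fatty acid-binding protein of radial glia, had the highest correlation with *CXCR4* over the 24 arrays too (0.951). Its mean was 17.13 in sh-C and 15.94 in *ROR2* KD cells on day 14. *ACKR3* was most like the ephrin receptor gene *EPHB3* (r = 0.987), the survival gene *BCL2* (0.982), the heparan sulfate sulfotransferase gene *HS2ST1* (0.980), *MPPED1* (0.978) and *ZNF124* (0.974). *EPHB3* had means of 9.28 in sh-C and 7.48 in *ROR2* KD cells on day 21. *CXCL12* was most like *TRAF7* (r = 0.982), *PRDX4* (0.979), *SCARB1* (0.979), *CCT5* (0.977) and *RDH11* (0.977), which were all highest on day 0.

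**Figure D5:**
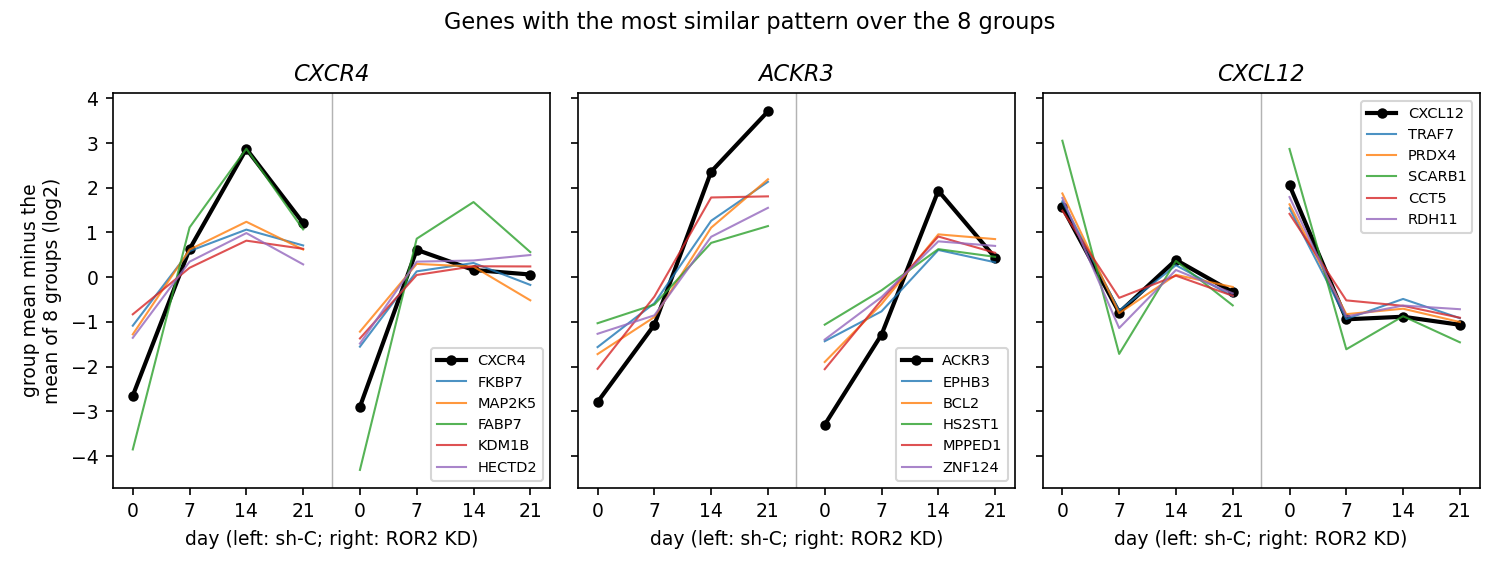
Group means of *CXCR4*, *ACKR3* and *CXCL12* (black) and of the 5 genes most like each (coloured), each minus its mean over the 8 groups (log2), by day in sh-C cells (left of the grey line) and *ROR2* KD cells (right). *FABP7* follows *CXCR4* with r = 0.958, and *EPHB3* follows *ACKR3* with r = 0.987.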

How the data were processed

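The deposited values are log2 signals of 24 Clariom D arrays, made by the authors with the RMA method of Transcriptome Analysis Console. RMA subtracts background, equalizes the arrays' distributions and condenses a cluster's probes into 1 value per array. The genome build of the probes is not given in the sources used here. Of 138745 probe sets, 2995 controls were left out, and 135750 clusters were tested as deposited. The platform annotation gave 36176 clusters 1 symbol, 1119 several and 98455 none, and a gene was read from its single-symbol cluster with the highest mean. Of 33616 genes, 24387 had an Entrez ID that RefSeq lists.

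Groups came from the sample titles. limma 3.58.1 fitted a mean to each of the 8 groups over all arrays (R 4.3.3; 16 residual and 6.36 prior degrees of freedom). P-values are two-sided and Benjamini-Hochberg adjusted over all clusters. Calls required a fold change above 2 and an adjusted p below 0.05. "At least" folds compare the brighter group's mean with the background level of the dimmer group. The number of arrays limits the precision. The fit was checked on simulated arrays, and 0 pairs of arrays were identical. The members, lists and tests were chosen with earlier results of these data known. Genes named from a list are the called ones with the largest differences, up to 4 on days 14 and 21 and up to 2 before, plus those stated as chosen later. Alternatives were other scalings, filters, variance models, blocks, the unpaired t-test that the methods name for comparing groups, and arrays left out. The paper's own adjusted p-values for arrays came from Transcriptome Analysis Console and not from that t-test. A fit without the 4 arrays with the highest medians was added after seeing the data.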

Additional observations from a re-analysis of the deposited data

Results flagged for a closer look

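The difference between the cell lines in *CXCR4* passed the test of a change from day 7 to day 14. It changed by -2.69 on the log2 scale (adjusted p = 0.000355 from limma), with all sh-C arrays of day 14 above those of day 7 and the *ROR2* KD arrays of both days overlapping. The difference in *ACKR3* passed it from day 14 to day 21 and changed by -2.84 (adjusted p = 0.00122 from limma). All sh-C arrays of day 21 lay above those of day 14, and all *ROR2* KD arrays of day 21 lay below those of day 14.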

How the results depend on the processing

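The *CXCR4* difference of day 14 and the *ACKR3* difference of day 21 were called in all limma fits tried, and ranged from -2.82 to -2.54 and from -3.45 to -3.07 when 1 array was left out. The *CXCR4* difference of day 21 ranged from -1.23 to -1.09. It was -1.15 (adjusted p = 0.0528) with only the 6 arrays of the day, and -1.09 (0.0697) without the 4 arrays with the highest medians (*ROR2* KD day 7 replicates 2 and 3 and replicate 3 of both cell lines on day 21). This fit leaves 1 *ROR2* KD array of day 7, whose spread is taken from the other groups. It also turned the sign of uncalled differences of day 7, to 0.29 for *CXCR4*, 0.41 for *ACKR3* and 0.25 for *CXCL12*, and of the *CXCL12* change from day 7 to 14 in *ROR2* KD cells, to -0.35. The narrowing of the *CXCR4* difference from day 14 to 21 was called with a variance trend (1.56, adjusted p = 0.0367), array weights (1.53, 0.0358) and a filter on dim clusters (1.56, 0.00961). *CXCL12* was not among the filtered clusters, so that no value was had there.

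The *CXCL12* difference of day 14 ranged from -1.63 to -0.86 without 1 array and was called with array weights (-1.27, adjusted p = 0.0192). Its sh-C change from day 7 to 14 was called at 1.18 with only the 12 arrays of the cell line (adjusted p = 0.018), the replicate block (0.042), a variance trend (0.043) and without the 4 arrays (0.0442), and at 1.15 with array weights (0.0146). Same-numbered arrays of both cell lines correlated at -0.03 to 0.15 in their deviations, with 1 of 12 pairs over 0.1. Those of neighbouring days within a cell line correlated at -0.07 to 0.15, with 2 of 18 pairs over 0.1. The labels do not say whether the numbers pair the arrays, and these low values cannot exclude it. The replicate block changed no other call of the 3 genes.

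The list genes called on day 7 numbered 0 with only the arrays of the day, without the 4 arrays and by the methods' t-test, 2 with median centring or the dim filter, 3 with a variance trend or array weights, and 0 to 3 without 1 array. The methods' t-test, which estimates each spread from 6 arrays, called 0 list genes on day 14 and 3 on day 21. Of all genes it called 9 and 129 on these days. After adjustment it did not call *CXCR4* on day 14 (-2.71, 0.0817) or day 21 (-1.15, 0.0676), nor *ACKR3* on day 21 (-3.27, 0.0657). It did not call the *CXCR4* changes after day 7 in sh-C cells (2.24, then -1.66), the last sh-C change of *ACKR3* (1.35) or its 3 changes in *ROR2* KD cells (2.01, 3.22 and -1.497) either. The last sh-C change of *ACKR3* ranged from 1.18 to 1.52 without 1 array.

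Uncalled values turned sign without 1 array. On day 7 *CXCR4* ranged from -0.18 to 0.27, *ACKR3* from -0.54 to 0.12 and *CXCL12* from -0.35 to 0.16. The *ACKR3* difference changed by -0.028 to 0.63 from day 0 to 7 and by -0.55 to 0.11 from day 7 to 14. *CXCL12* in *ROR2* KD cells changed by -0.30 to 0.46 and then by -0.59 to 0.18. Of the 5 genes most like each member, 2, 2 and 3 were also among the 5 most like over 24 arrays. The cause of these changes was not tested. Signals under the background level limit *CXCL12* on 23 of 24 arrays, *CXCR4* on day 0 and *ACKR3* on days 0 and 7.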

Other observations

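*ROBO1*, a SLIT receptor, had log2 means (n = 3) of 12.56 in *ROR2* KD and 13.77 in sh-C cells on day 14 (lower, difference -1.21, adjusted p = 0.000384 from limma), and of 13.17 and 11.86 on day 21 (higher, difference 1.31, adjusted p = 4.94e-05). It was above the background level on all 12 arrays. *DCX*, a microtubule protein of migrating neurons, was higher on day 14 by 1.22 (adjusted p = 0.00343). The reelin receptor gene *VLDLR* was higher on day 21 by 2.66 (adjusted p = 7.11e-07), with no sh-C array above the background level. These genes were singled out after their values were seen.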
